A study of Mus musculus with 6 samples.

Results

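The genes of MHC class II and its loading machinery were examined in splenic B cells of 3 groups of mice that differ in Btk, a tyrosine kinase that acts downstream of the B cell receptor. The list holds 10 genes: the class II chains H2-Aa, H2-Ab1, H2-Ea and H2-Eb1, the invariant chain Cd74, the loading factors H2-DMa, H2-DMb1, H2-Oa and H2-Ob, and the transactivator Ciita. Members were all probe sets whose annotation gives 1 of these symbols alone. They came to 11 of 12422 probe sets, 2 for H2-DMa and 1 for each other gene, and all 11 were among the 7453 bright enough to be tested. A probe set annotated to both H2-DMb1 and its close relative H2-DMb2 was named for neither.

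The first group, Btk KO, is a knockout line made on SW129 mice and crossed to CBA for 9 generations. The second, Xid, is CBA/N, a strain with the substitution R28C in Btk. The third is wild type CBA. RNA of whole splenic B lymphocytes from adult mice was hybridised to 6 Affymetrix MG_U74Av2 arrays, 2 per group, in 2 runs with 1 array of each group and with new mice in run 2. The samples numbered 1 and 2 were taken as runs 1 and 2, since those of a number share a chip lot. No stimulation, age or method of B cell purification is given, nor whether an RNA came from 1 animal or a pool. Each mutation comes in a line of its own, so Btk and other differences between the lines cannot be told apart.

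MHC class II molecules carry peptides from proteins taken up into endosomes to the cell surface, where CD4+ T cells read them, and B cells are among the few cell types that make them at all times. Mice have an I-A and an I-E isotype, each an alpha and a beta chain. The invariant chain guides new class II molecules to the endosome and blocks their groove. H2-DM then exchanges the remaining invariant chain fragment for peptide, and H2-O, which is found mainly in B cells, restrains H2-DM. Ciita is a coactivator that switches on class II transcription. The comparisons ask how far this set differs between B cells with an absent, a mutant and an intact Btk.

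No class II probe set passed the test in any comparison. H2-Ab1, the beta chain of I-A, was lowest on both Btk KO arrays, as were 6.02% of all tested probe sets. Its Btk KO mean was 61.6% of the CBA mean. The 95% interval of that difference, not adjusted for the number of probe sets, lay below 0, with a limma adjusted p of 0.29. H2-Aa, H2-Eb1, H2-DMa and Cd74 had Btk KO means at 92.7%, 86.0%, 94.0% and 84.1% of CBA. Within run 1 Btk KO stood at 101%, 94.5%, 96.7% and 94.7% of CBA, and within run 2 at 82.8%, 77.3%, 91.5% and 74.5%. Xid was about as low within run 2, at 81.4%, 77.0%, 86.2% and 76.2% of the same CBA array. Ciita, H2-DMb1, H2-Ob and H2-Ea had the largest Btk KO differences apart from H2-Ab1, at -1.04 to -0.64 on the log2 scale, but without the Btk KO array of run 1 these were -0.29 to 0.03, or -0.54 to -0.26 with the run as a block.

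That array stands apart in RNA quality. Its Gapdh control had a 3' to 5' ratio of 10.4 and its beta-actin control one of 3.61, where the other 5 reached 1.61 and 1.66. No other array shared its hybridisation day, so Btk KO differences within run 1 also span 2 days. In run 1 Xid and CBA had Gapdh ratios of 1.61 and 1.16, and a beta-actin ratio of 1.66 each. The arrays of run 2 had lower ratios, at 0.756 to 0.868 for Gapdh and 1.1 to 1.22 for beta-actin. Values are given below as intensities scaled by the authors, always run 1 before run 2. Btk, the check of the labels, measured 276.1 and 173.6 in Btk KO, 841 and 643.9 in Xid, and 874.1 and 749.8 in CBA. Its difference of -1.86 in Btk KO had a limma adjusted p of 0.052, and of 0.0053 with the run as a block, and Xid overlapped with CBA. Where this probe set lies relative to the deleted part of Btk is not known here.

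H2-Ab1 pairs with H2-Aa to form I-A. It measured 952.9 and 997.2 in Btk KO, 1374.2 and 1414.4 in Xid, and 1486.8 and 1676.6 in CBA. The 3 groups did not overlap, and the arrays of a group lay close together. The Btk KO difference from CBA was -0.69 ± 0.19 on the log2 scale (SE, 95% interval -1.14 to -0.24), at -0.64 and -0.75 within the runs. The limma adjusted p over the whole array was 0.29, so the difference did not pass, and it did not with the run as a block either. Against Xid the Btk KO difference was -0.51 (interval -0.96 to -0.07, adjusted p = 1.0), at -0.53 and -0.50 within the runs. Xid differed from CBA by -0.18 (interval -0.63 to 0.27). H2-Ab1 was the single member with both Btk KO arrays below all 4 others, which held for 6.02% of all tested probe sets.

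H2-Aa, the alpha chain of I-A, measured 7966.8 and 5588.8 in Btk KO, 9236.2 and 5498.1 in Xid, and 7864.2 and 6752.7 in CBA. All groups overlapped, and every group was higher in run 1. Its partner H2-Ab1 did not share this run difference. Btk KO differed from CBA by -0.13 (interval -0.92 to 0.67) and Xid by -0.03 (interval -0.83 to 0.76).

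H2-Eb1, the beta chain of I-E, measured 5012.7 and 4013.9 in Btk KO, 5559.1 and 3996.8 in Xid, and 5306.8 and 5192.5 in CBA. Both Btk KO arrays lay below both CBA arrays, by -0.08 in run 1 and -0.37 in run 2, while Xid overlapped with CBA. The Btk KO difference was -0.23 ± 0.27 (SE, interval -0.86 to 0.40, adjusted p = 0.89).

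H2-Ea, the alpha chain of I-E, read low throughout, at 11.6 and 71.5 in Btk KO, 36.4 and 74.3 in Xid, and 41.4 and 115 in CBA. It was lower in run 1 than in run 2 in each group, and the Btk KO array of run 1 lay below 19.8, the level under which probe sets count as dim. The Btk KO difference of -1.04 ± 0.74 from CBA (SE, interval -2.77 to 0.70) became 0.03 without that array, or -0.54 with the run as a block, and was -0.64 within run 2. As background, the H-2k haplotype of CBA makes H2-Ea, whereas the H-2b haplotype of 129 and C57BL/6 mice carries a deletion in the promoter, and the gene table of the C57BL/6J reference lists H2-Ea as a transcribed pseudogene. The haplotype that the Btk KO line carries here is not given in the labels. Class II chains differ in sequence between haplotypes, and the match of each probe set to the H-2k alleles was not tested.

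**Figure D1:**
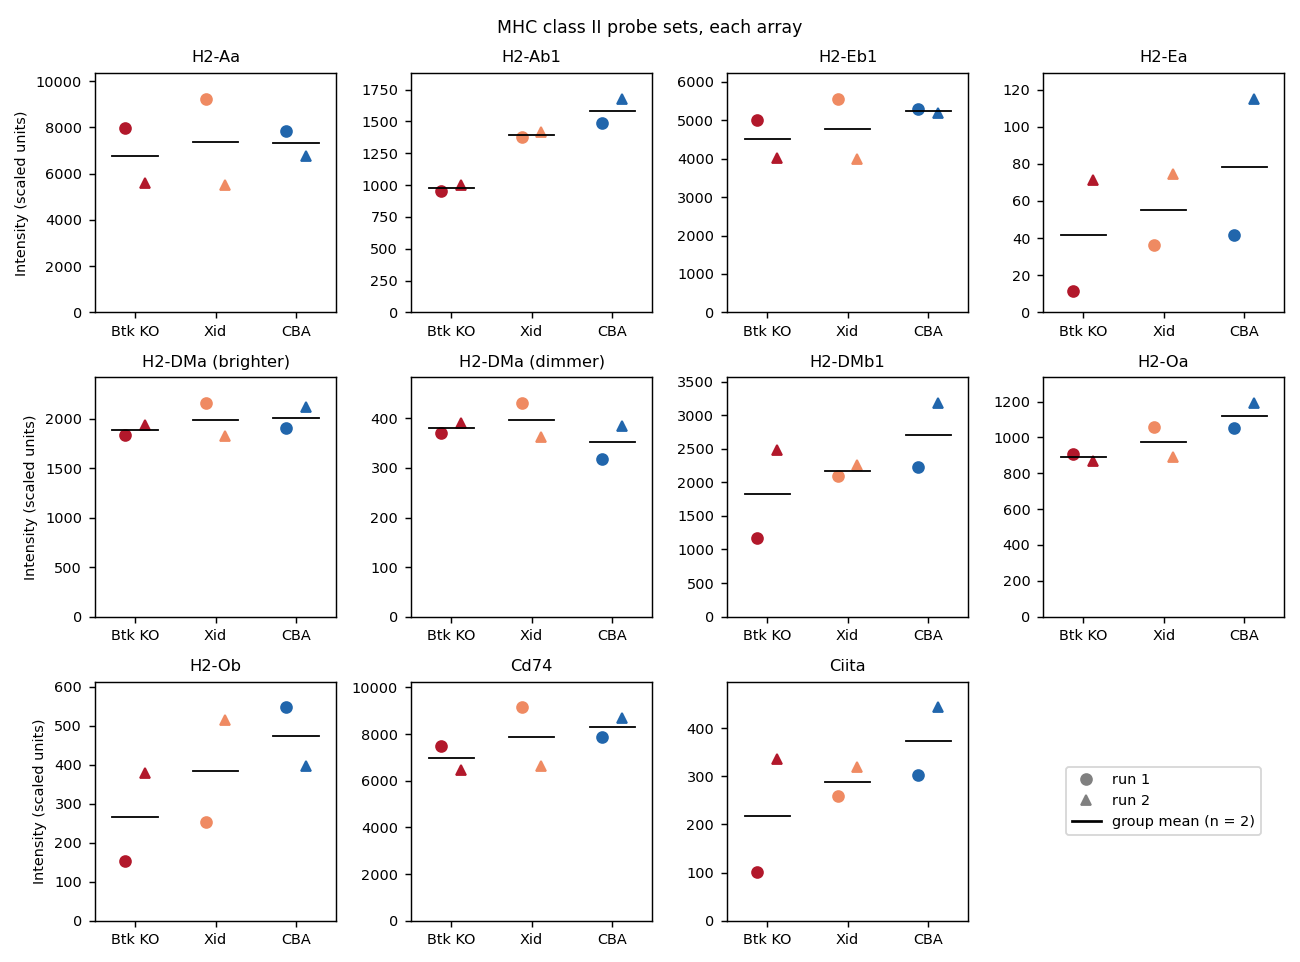
Intensity (scaled units, linear axes from 0) of the 11 class II probe sets on each array, by group; circles are run 1, triangles run 2 and lines the group mean of 2 arrays. H2-Ab1 separates the groups with little spread, H2-Aa, H2-Eb1 and Cd74 of Btk KO and Xid are higher in run 1, and Ciita, H2-DMb1, H2-Ob and H2-Ea are low on the Btk KO array of run 1.

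The promoters of the class II chain, invariant chain and loading genes are known for a shared module on which Ciita acts. It is an X box bound by the RFX complex, followed at a fixed distance by a Y box bound by NF-Y. Promoters of listed genes in which letters of this module were found are shown. They are the 100 bases before the annotated start in RefSeq's table for GRCm38.p6, which is C57BL/6J sequence and not that of CBA. Capitals mark GNAAC, as part of the X box, and TGATTGG, as the Y box. The I-A alpha chain H2-Aa is at chr17:34287824-34287923 on the minus strand, and the I-E beta chain H2-Eb1 at chr17:34305767-34305866 on the plus strand. H2-DMb1 is at chr17:34153091-34153190, H2-Oa at chr17:34092279-34092378 and H2-Ob at chr17:34238805-34238904, all on the plus strand.
H2-Aa: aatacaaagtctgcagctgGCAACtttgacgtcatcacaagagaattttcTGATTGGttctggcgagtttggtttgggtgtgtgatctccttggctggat
H2-Eb1: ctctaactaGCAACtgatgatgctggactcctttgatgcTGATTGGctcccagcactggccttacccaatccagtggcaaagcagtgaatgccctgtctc
H2-DMb1: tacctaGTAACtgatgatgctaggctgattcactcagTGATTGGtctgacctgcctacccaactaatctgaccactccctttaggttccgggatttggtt
H2-Oa: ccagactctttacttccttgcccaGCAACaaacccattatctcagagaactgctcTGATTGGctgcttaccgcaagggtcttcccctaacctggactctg
H2-Ob: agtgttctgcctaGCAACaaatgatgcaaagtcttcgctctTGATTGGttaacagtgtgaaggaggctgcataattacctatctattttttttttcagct

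Of the 10 genes, 6 matched a promoter window of 300 bases in that table, and H2-Ab1, H2-Ea, Cd74 and Ciita did not. The 6 genes had 7 windows, as H2-DMa had more than 1, each at a start inside its annotated span. Whether the H2-DMa windows include the start used in B cells was not tested. They therefore do not show whether the promoter of H2-DMa lacks the module. TGATTGG, searched on both strands, was found in 5 of the 6, all but H2-DMa, against 7.82% of all 32851 windows. In the same 5, GNAAC began 30 to 33 bases before the ATTGG of the Y box. That arrangement was found in 36 windows, or 0.11%. The letters and the spacing were set after these sequences had been seen, so the share describes the windows and tests nothing. Of the 30 genes outside the list with the arrangement, 1 was another class II gene, H2-Eb2, whose probe set read at most 12.9. Among the 5 genes with the arrangement, H2-Aa and H2-Eb1 were higher in run 1 in each group, H2-Eb1 only slightly in CBA. H2-DMb1 was higher in run 2 in each group, and H2-Oa and H2-Ob were neither. The runs also differ in chip lot and in the 3' to 5' ratios of the controls. Whether the arrangement bears on these levels was not tested.

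The invariant chain Cd74 measured 7472.1 and 6475.8 in Btk KO, 9148.6 and 6625.7 in Xid, and 7894.2 and 8691.7 in CBA. Both Btk KO arrays lay below both CBA arrays. The difference was -0.25 ± 0.28 (SE, interval -0.90 to 0.40, adjusted p = 0.88), at -0.08 and -0.42 within the runs. Xid overlapped with CBA, and its within-run differences of 0.21 and -0.39 had opposite signs.

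H2-DMa, the alpha chain of the peptide exchanger, varied least. Its brighter probe set measured 1838.7 and 1935.9 in Btk KO, 2156.6 and 1823.8 in Xid, and 1901.2 and 2115.5 in CBA, with the highest array at 1.18 times the lowest. The groups overlapped, and Btk KO differed from CBA by -0.09 (interval -0.58 to 0.40). Its dimmer probe set measured 317.6 to 431.1 over the 6 arrays and had the other sign, 0.12 (interval -0.35 to 0.59).

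H2-DMb1, the beta chain that pairs with H2-DMa, spread far more. It measured 1172.9 and 2482.8 in Btk KO, 2088.1 and 2257.4 in Xid, and 2224 and 3181.4 in CBA. The Btk KO array of run 1 was lowest and the CBA array of run 2 highest. Its Btk KO difference of -0.64 ± 0.37 from CBA (SE, interval -1.50 to 0.22, adjusted p = 0.71) was -0.92 in run 1 and -0.36 in run 2, and -0.10 without the Btk KO array of run 1, or -0.26 with the run as a block. The probe set shared by H2-DMb1 and H2-DMb2 had the same lowest and highest array. It measured 361.3 and 658.4 in Btk KO, 547.8 and 701.7 in Xid, and 730.8 and 838.8 in CBA. Unlike H2-DMb1, it had no overlap with CBA in Btk KO or Xid. Both arrays were lower than CBA in this way for 16.0% and 14.4% of all tested probe sets.

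H2-DMb2, a second beta chain gene that is no member, showed the widest swing. It measured 66.1 and 992.5 in Btk KO, 325 and 884.7 in Xid, and 583.4 and 1334 in CBA. On the Btk KO array of run 1 its value was 6.66% of that in run 2, against 36.7% for Xid and 43.7% for CBA. H2-DMb1 and H2-DMb2 are near-identical copies whose probe sets may share signal, so neither value is certain to belong to 1 gene.

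H2-Oa, the alpha chain of the H2-DM inhibitor, measured 909.8 and 870.5 in Btk KO, 1055.9 and 891.2 in Xid, and 1050.4 and 1192.1 in CBA. Both Btk KO arrays lay below both CBA arrays, with a difference of -0.33 ± 0.20 (SE, interval -0.79 to 0.13, adjusted p = 0.73), at -0.21 and -0.45 within the runs. Xid differed from CBA by -0.20, at 0.01 and -0.42 within the runs.

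H2-Ob, its beta chain, measured 153.4 and 379.7 in Btk KO, 252.5 and 514.8 in Xid, and 546.9 and 396.1 in CBA. Btk KO and Xid were both lower in run 1 and CBA was lower in run 2, a pattern no other member showed. Btk KO differed from CBA by -0.93 ± 0.47 (SE, interval -2.03 to 0.18, adjusted p = 0.65), but by -1.79 in run 1 and -0.06 in run 2, and by -0.29 without the Btk KO array of run 1, or -0.43 with the run as a block. For Xid the run 1 difference of -1.10 and the run 2 difference of 0.37 had opposite signs.

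Ciita, the transactivator, measured 100.7 and 335.3 in Btk KO, 258.2 and 318.5 in Xid, and 303.2 and 443.3 in CBA. Outside the Btk KO array of run 1 the values ranged from 258.2 to 443.3. Btk KO differed from CBA by -0.97 ± 0.50 (SE, interval -2.13 to 0.20, adjusted p = 0.65), at -1.53 in run 1 and -0.40 in run 2. This was -0.13 without the Btk KO array of run 1, or -0.34 with the run as a block, and -1.80 (adjusted p = 0.033) when that array alone stood for Btk KO. The Xid difference was -0.35 ± 0.50 (SE, interval -1.51 to 0.81), at -0.23 and -0.47 within the runs.

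**Figure D2:**
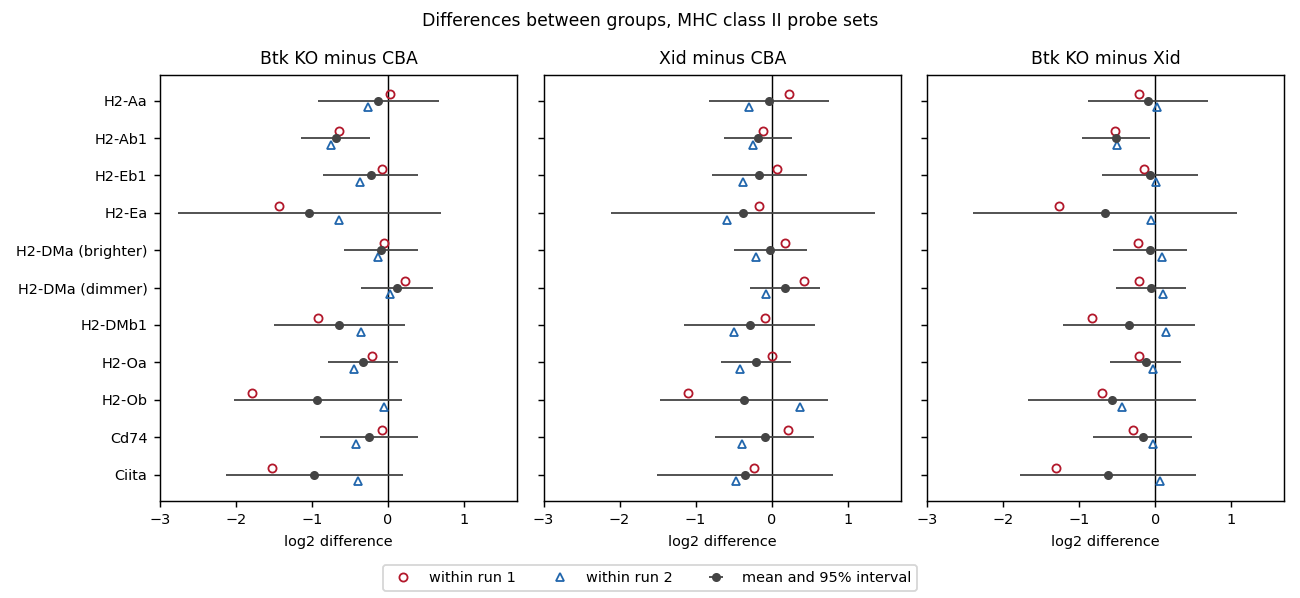
log2 differences of the 11 class II probe sets in the 3 comparisons; filled points are the fitted difference with its 95% interval (2 arrays per group), open circles the difference within run 1 and open triangles within run 2. In Btk KO minus CBA the interval of H2-Ab1 alone lies below 0, and the runs lie far apart for H2-Ob, at -1.79 and -0.06, and Ciita, at -1.53 and -0.40.

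In the comparison of Btk KO with CBA the 10 genes, each by its brightest probe set, had a median difference of -0.48, against 0.01 over all tested probe sets. All 10 lay below 0 in this fit. H2-DMa stood at 0.02 under quantile normalization, H2-Ea at 0.03 without the Btk KO array of run 1, and H2-Aa at 0.13 without that of run 2. Within the runs the medians were -0.42 and -0.38. None of the 11 probe sets passed (0, with limma), where 0.174% of all tested probe sets did, and 1 had an unadjusted p under 0.05. With the run as a block again 0 passed, where 2.23% did, and 5 had an unadjusted p under 0.05. The share of all probe sets at that unadjusted threshold is not given, so such counts, here and below, are description only. Both Btk KO arrays lay below both CBA arrays for 5 of the 11 (16.0% of all probe sets), namely H2-Ab1, H2-Eb1, H2-Oa, H2-Ob and Cd74. Differences were negative for 9 of the 11 in run 1 (49.7% of all), 10 in run 2 (45.9%) and 9 in each of them (27.1%). Without the Btk KO array of run 1, whose Gapdh ratio was 10.4 and which was the lowest of all 6 for 5 of the 11 probe sets (24.4% of all), the median was -0.32 and again 0 passed (0.161% of all). Without the CBA array of run 2 it was -0.30. The part of RNA quality in the result was not tested.

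In the comparison of Xid with CBA the median was -0.19, against 0.01 over all probe sets. The fitted differences ran from -0.38 to -0.02 and all 10 lay below 0, but under quantile normalization H2-Aa, H2-DMa and Cd74 turned to 0.02, 0.09 and 0.01. The runs differed: the median was -0.04 in run 1 and -0.38 in run 2, with 5 of the 11 probe sets lower in run 1 (52.5% of all), 10 in run 2 (44.9%) and 4 in both (25.4%). Run 2 rests on a CBA array that was the highest of all 6 for 5 of the 11 probe sets (15.0% of all), and without it the median was -0.09. None passed (0, with limma, without or with the run block, and 0 at an unadjusted p under 0.05), where 0.0671% and 0.483% of all probe sets did. Both Xid arrays lay below both CBA arrays for 1 of the 11, H2-Ab1 (14.4% of all).

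The 2 lines with defective Btk differed from each other by a median of -0.25, Btk KO minus Xid, against 0.00 over all probe sets. This was -0.41 in run 1, with all 11 probe sets lower (47.8% of all), and -0.01 in run 2, with 5 lower (51.3%). For 5 of the 11 the sign was negative in each run (26.6%). Leaving out the Btk KO array of run 1 gave a median of -0.10, and 4 of the 10 genes, H2-Ea, H2-DMb1, H2-Ob and Ciita, then lay above 0, which with the run as a block held for 2, H2-DMb1 and Ciita. None passed (0, with limma, without or with the run block), where 0.0403% and 0.188% did, and H2-Ab1 alone had an unadjusted p under 0.05. It was also the single probe set with both Btk KO arrays below both Xid arrays (12.3% of all). The 3 comparisons share arrays, so their differences are not independent of one another.

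Averaged over the 10 genes, each centred on its own mean, the log2 level was -0.54 and -0.02 in Btk KO, 0.03 and 0.05 in Xid, and 0.13 and 0.36 in CBA. The low end was thus the Btk KO array of run 1 and the high end the CBA array of run 2. Over the 6 arrays, the genes outside the list with the most similar profile among 5586 were Commd4, Ldb1 and Adck1, with Pearson's r of 0.995, 0.991 and 0.991. Each of these was likewise lowest on the Btk KO array of run 1 and highest on the CBA array of run 2. These correlations only describe 6 points that share those 2 arrays.

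Summed cell markers lay apart between groups for some lists and overlapped for others. Summed over the 13 of 14 B cell markers that were bright enough, intensity was 20139 and 19100 in Btk KO, 26803 and 21809 in Xid, and 27405 and 27084 in CBA. Their median log2 difference was -0.52 in Btk KO and -0.16 in Xid, and 12 and 10 of the 13 lay below 0. With limma 0 passed, without or with the run block, and 4 in Btk KO and 0 in Xid had an unadjusted p under 0.05 without the block, 7 and 4 with it. The sum over the 10 class II genes was 25592 and 23151 in Btk KO, 31166 and 23415 in Xid, and 28619 and 29757 in CBA. Relative to the CBA mean the Btk KO arrays thus stood at 87.7% and 79.3% for class II and at 73.9% and 70.1% for B cell markers. The class II sum rests mostly on its brightest genes, H2-Aa, H2-Eb1 and Cd74. By median log2 difference in Btk KO the class II list stood at -0.48 and the B cell markers at -0.52. In bulk RNA, fewer cells of a type and less RNA per cell cannot be told apart.

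Macrophages and dendritic cells also make class II molecules. Summed over the 17 of 24 macrophage and monocyte markers that were bright enough, intensity was 9951 and 13575 in Btk KO, 6385 and 9588 in Xid, and 2996 and 4502 in CBA. Of these, 11 rose in Btk KO and 6 in Xid with the run block, where 2.23% and 0.483% of all probe sets passed. Without it 3 and 0 rose (0.174% and 0.0671% of all passed), and 12 and 11 had an unadjusted p under 0.05. Without the Btk KO array of run 1, the Btk KO counts were 10 with the run block and 3 without. Over the 8 of 14 dendritic cell markers that were bright enough, which do not include Siglech, Zbtb46 and Clec9a, the sums were 1965 and 2871 in Btk KO, 2131 and 2974 in Xid, and 1950 and 2445 in CBA, with overlap between all groups. Of that list 0 passed in either fit with limma, 1 in Btk KO and 0 in Xid had an unadjusted p under 0.05 without the block, 2 and 0 with it, and its lowest single intensity was 15.4. Summed neutrophil markers stood at 416% and 760% of the CBA mean in Btk KO and at 131% and 120% in Xid. Of 7 such markers 2 rose in Btk KO (0.174% of all probe sets passed), and 4 with the run block (2.23%). Summed erythroid markers stood at 332% and 160% in Btk KO and at 138% and 115% in Xid, so the Btk KO array of run 1 was the highest of all 6, and 0 of 7 passed with limma in either fit, with 7 in Btk KO and 0 in Xid at an unadjusted p under 0.05. T cell and plasma cell markers had Btk KO medians of 0.42 and -0.20. The part of other cell types, or of B cell content, in the class II values was not tested.

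**Figure D3:**
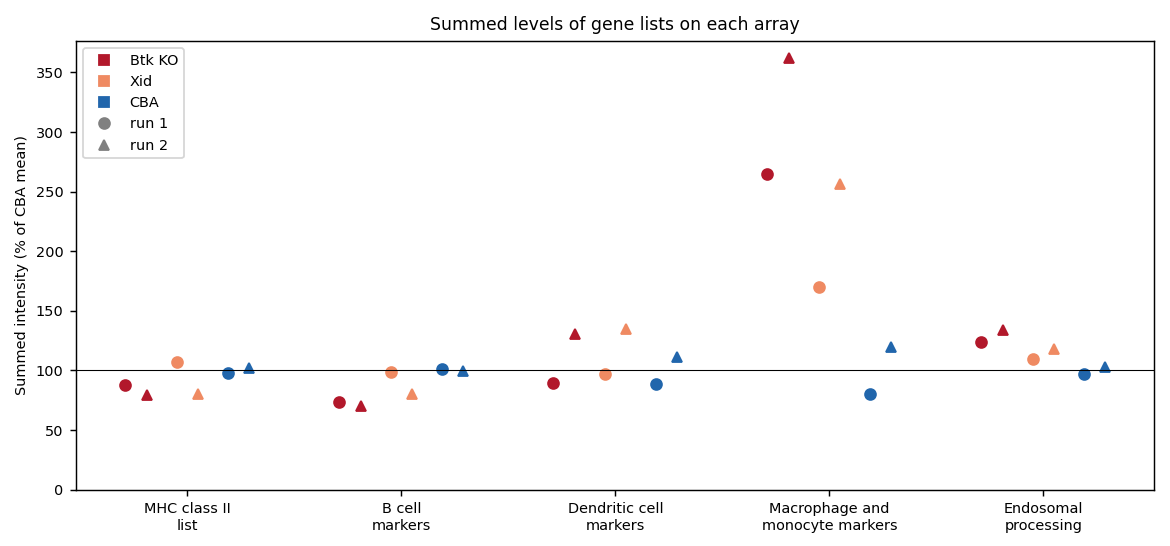
Summed intensity of each gene list on each array, as a percentage of the mean of the CBA arrays (linear axis from 0); colours are groups, circles run 1 and triangles run 2. The class II list lies at 79.3% to 107% in Btk KO and Xid, B cell markers at 70.1% to 98.4%, and macrophage and monocyte markers at 170% to 362%.

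Other genes of the pathway were taken by list. Of 18 listed regulators of class II transcription 12 were bright enough, and 0 passed in any comparison with limma, without or with the run block, though 2 in Btk KO and 0 in Xid had an unadjusted p under 0.05 without the block, 3 and 1 with it. The median difference from CBA was -0.07 in Btk KO and 0.05 in Xid. Irf8 is an interferon regulatory factor of B and myeloid cells. It measured 2144.5 and 1499.9 in Btk KO, 1588.4 and 1444.4 in Xid, and 1096.2 and 1056.4 in CBA. Both Btk-defective groups thus lay above CBA (limma adjusted p = 0.37 for Btk KO and 1.0 for Xid). The share of all probe sets that lie so is not given, so this order is description only. The Btk KO difference of 0.73 was 0.48 without the Btk KO array of run 1. Irf1, a target and mediator of interferon, measured 744.4 and 645.2 in Btk KO, 534.3 and 523.3 in Xid, and 479.3 and 403.3 in CBA (limma adjusted p = 0.34 for Btk KO and 1.0 for Xid).

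Endosomal processing genes had a median of 0.30 in Btk KO and 0.20 in Xid over 15 genes, with 12 above 0 in each. Without the run block 0 passed with limma (3 in Btk KO and 1 in Xid had an unadjusted p under 0.05). With the block 2 rose in Btk KO and 1 in Xid, where 2.23% and 0.483% of all probe sets passed. Without the Btk KO array of run 1 and with the block, 1 rose in Btk KO. Ctsd, the aspartic protease cathepsin D, measured 1179.6 and 1544.1 in Btk KO, 751.4 and 1036.5 in Xid, and 338.8 and 539.8 in CBA, with differences of 1.64 and 1.03 (adjusted p = 0.0063 and 0.047 with the run block, 0.11 and 0.59 without). Ctsb, the cysteine protease cathepsin B, measured 2005.5 and 2245.1 in Btk KO, 1099.1 and 1779 in Xid, and 760.1 and 1088.7 in CBA. Its difference was 1.22 in Btk KO (0.019 with the run block, 0.22 without). Both proteases are also abundant in macrophages, whose summed markers stood at 265% and 362% of CBA in Btk KO, and the part of macrophages in these values was not tested.

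The class I loading list had a median of 0.06 in Btk KO and 0.02 in Xid over 12 genes, and the costimulation list -0.17 and -0.12 over 3 genes. In each list 0 passed with limma, without or with the run block, and 1 in Btk KO and 0 in Xid had an unadjusted p under 0.05 without the block. Cd83, a surface protein that protects class II from breakdown, measured 235.5 and 232.8 in Btk KO, 250.4 and 314.1 in Xid, and 337.4 and 440.5 in CBA (limma adjusted p = 0.37 for Btk KO). Its groups ordered like those of H2-Ab1, with both Btk KO arrays below all others, which held for 6.02% of all tested probe sets.

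Besides Cd74 and Ciita, the 8 other members lie in 1 stretch of chromosome 17, interspersed with other genes. Of the 24 measured neighbours within and beside that stretch, 0 passed without the run block (limma, 2 in Btk KO and 1 in Xid at an unadjusted p under 0.05). With the block 1 fell, in Btk KO and in Xid, where 2.23% and 0.483% of all probe sets passed. This was Notch4, a Notch receptor gene, and its probe set is of the design that may pick up similar transcripts of other genes. It measured 68.7 and 86.5 in Btk KO, 39 and 21.6 in Xid, and 204.5 and 356.8 in CBA, with differences of -1.73 and -2.97 (adjusted p = 0.05, just under the threshold, and 0.019 with the run block; 0.15 and 0.051 without). Without the Btk KO array of run 1 the Btk KO value with the block was 0.18. The neighbours, H2-DMb2 included, had a median of 0.09 in Btk KO and -0.01 in Xid. The class I transporter genes Tap1 and Tap2, which lie between the class II genes, differed by 0.34 and 0.30 in Btk KO (limma adjusted p = 0.69 and 0.74).

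**Figure D4:**
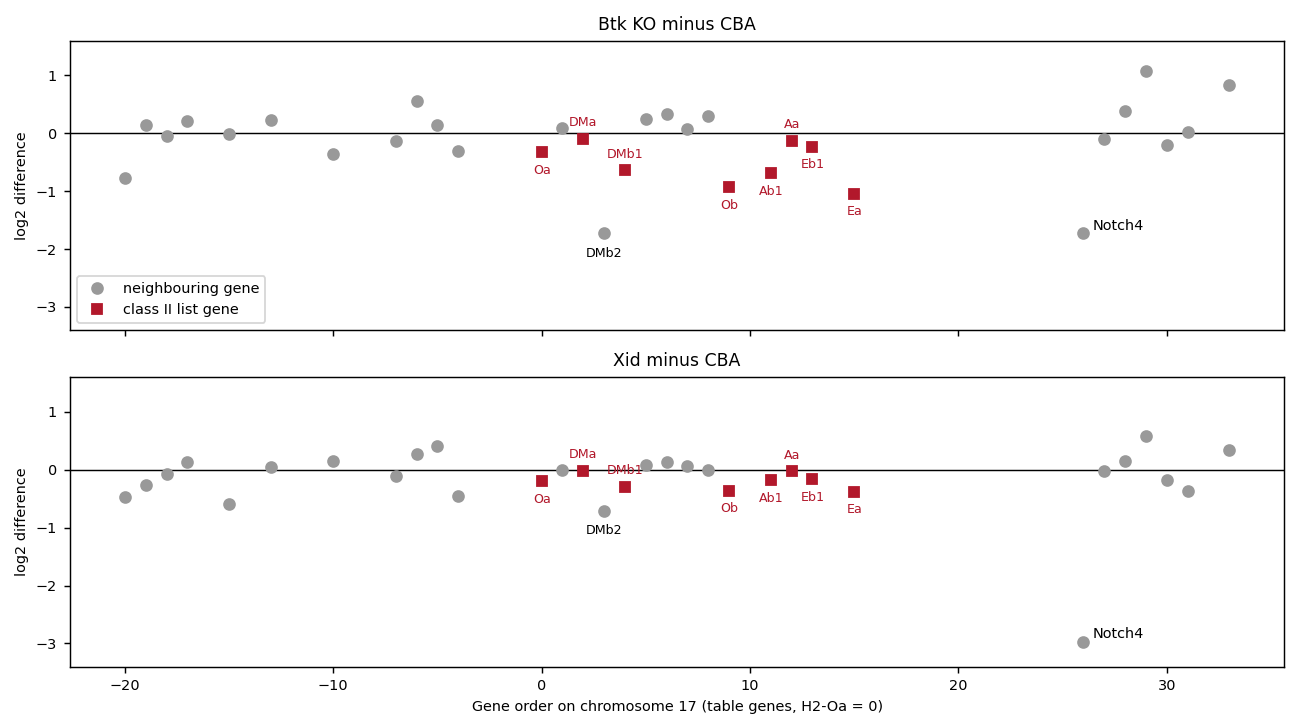
log2 difference from CBA (vertical axis) by gene order, for Btk KO above and Xid below. Red squares are the 8 listed class II genes on chromosome 17, and grey points their 24 measured neighbours, which include H2-DMb2. Notch4, at -1.73 and -2.97, and H2-DMb2 lie lowest, and the listed class II genes lie between -1.04 and -0.02.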

How the data were processed

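Each array's deposited values are linear intensities, 1 for each probe set, scaled by the authors to the same 2% trimmed mean of 100.06 on each array. The probe summary method is not given in the sources used here. Chip lot and hybridisation day were read per the file headers. Of the probe sets, 66 controls were left out. Symbols came from the platform annotation, updated by gene number for 10817 of 10833 probe sets with 1 symbol in the GRCm38.p6 gene table. Intensities were taken to log2 after adding 6, the 20th percentile, and probe sets below the 40th percentile of mean log2 (about 19.8) were left out.

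The 3 group means of all 6 arrays were fitted with limma 3.58.1 in R 4.3.3 (lmFit, eBayes with trend, 3 residual degrees of freedom), two-sided, with Benjamini-Hochberg adjustment over 7453 probe sets and a threshold of 0.05. The script was tested on simulated data. A gene with several probe sets entered medians by its brightest. Per the labels, 3 arrays came first and 3 with new RNA later, and samples are numbered 1 and 2. Arrays of a number share a chip lot per the file headers, so the numbers were read as runs, although the Btk KO array of run 1 was hybridised on another day than the other 2. Deviations from the group mean correlated between groups within a run, at 0.31 to 0.44. Figures were drawn with matplotlib 3.10.9.

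The members, the lists and the rule for naming genes were chosen with earlier results of these data known. The rule names every member, Btk, H2-DMb2, up to 4 genes per list by the smallest p, and the 3 genes of the most similar profile. H2-Eb2 was added after its promoter was seen. Alternatives were the run block, normalizations, pseudocounts, filters, no trend, only the groups compared, and each array left out.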

Additional observations from a re-analysis of the deposited data

How the results depend on the processing

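With 2 arrays per group and no detection calls, only large differences could pass for genes that vary as Ciita does. Of 467 gene differences under an alternative, 439 kept their direction and call, 27 turned sign and 1 was newly called (Ciita in Btk KO, -1.80 without Btk KO of run 2). H2-Ab1 in Btk KO kept its sign under all alternatives and did not pass in any, with an adjusted p of 0.075 under the replicate block. Where a value below moved, the cause was not tested.

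Class II probe sets called stayed at 0 under all alternatives, the replicate block included, except 1 in Btk KO against CBA without Btk KO of run 2 (range 0 to 1). The class II median in Btk KO against CBA was -0.37 under quantile normalization, -0.52 under median centring, -0.33 with the filter at the 60th percentile and with every probe set, -0.56 to -0.30 with an array left out, and -0.30 with the replicate block and without Btk KO of run 1. That last setting was added after seeing the data.

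Turned signs under quantile normalization were H2-Aa, H2-DMa and Cd74 in Xid (0.02, 0.09 and 0.01) and H2-DMa in Btk KO (0.02). With the replicate block and without Btk KO of run 1, H2-DMb1 and Ciita in Btk KO against Xid were 0.04 and 0.01. With an array left out, Xid against CBA ranged from -0.41 to 0.34 for H2-Aa, -0.39 to 0.08 for H2-Eb1, -1.05 to 0.30 for H2-Ea, -0.14 to 0.10 for H2-DMa, -0.87 to 0.14 for H2-Ob and -0.32 to 0.14 for Cd74. Btk KO against CBA ranged from -0.38 to 0.13 for H2-Aa and -2.11 to 0.03 for H2-Ea. Btk KO against Xid ranged from -0.47 to 0.28 for H2-Aa, -0.31 to 0.17 for H2-Eb1, -1.73 to 0.41 for H2-Ea, -0.19 to 0.05 for H2-DMa, -0.88 to 0.19 for H2-DMb1, -1.20 to 0.07 for H2-Ob, -0.39 to 0.07 for Cd74 and -1.46 to 0.22 for Ciita.

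Over the whole array limma called 5 probe sets in Xid against CBA, 13 in Btk KO against CBA and 3 in Btk KO against Xid. With the replicate block these were 36, 166 and 14, with a pseudocount of 32 they were 8, 24 and 8, and with only the groups compared 9, 0 and 0. A pseudocount of 1 gave 3 in Xid. In Btk KO against CBA quantile normalization gave 8, no filter 8, the filter at the 60th percentile 29 and no intensity trend 0. Median centring gave 5 in Btk KO against Xid. With an array left out the counts were 0 to 9, 0 to 145 and 0 to 29, where the lone array of a group is assumed to vary like the other groups. In Btk KO against CBA the count was 145 without Btk KO of run 2, 12 without Btk KO of run 1, and 0 without any 1 of the 4 Xid and CBA arrays.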
